A study of Mus musculus with 43 samples.

Results

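S100 proteins are small proteins with paired EF-hand motifs, most of which bind calcium. The 9 genes described here are S100a1, S100a4, S100a6, S100a10, S100a11, S100a13, S100a14, S100a16 and S100g. They were named by symbol, and earlier results of these data were known when the genes were chosen. They are 9 of 17 genes with an S100 symbol in each bulk expression table of 23951 genes. All 9 were also found among the 54307 gene rows of each single-cell library. The symbol S100a14 has also served as an older name of S100a11, and both genes have rows of their own in the tables.

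The measurements are bulk RNA-seq of primary intestinal organoids (18 libraries) and single-cell RNA-seq of organoids (4 libraries) and of sorted crypt cells (3 libraries). The bulk organoids came from wild-type C57BL/6 mice and formed 6 groups of 3 libraries: not irradiated and collected on day 7 (D7 non-IR), given 4 Gy on day 4 and collected on day 7 (D7 IR), or given 4 Gy on day 4 and collected on day 11 (D11 IR), each with vehicle or 2 ng/mL TGFB1 from day 6 for 24 h. The organoids for single cells shared that strain and genotype, were given 4 Gy on day 4, were all collected on day 8, and had TGFB1 at 1 ng/mL over the last 6, 15 or 24 h before collection. A vehicle library treated over the last 24 h is called 0 h. The crypt cells came from Mki67tm1.1Cle/J mice, which carry the Ki67-RFP reporter of cycling cells. They were sorted as RFP-positive and DAPI-negative from the proximal part of the small intestine, in 1 library from a littermate that was not irradiated and 2 libraries taken 56 h after 12 Gy. Crypts that were not irradiated passed a 70 μm strainer and irradiated crypts a 100 μm strainer, so the sampled crypts also differed in that step. The labels do not state age, sex, the number of mice behind a library or whether replicates came from separate cultures, so p-values measure the spread between these libraries, which may be technical.

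The S100 family works through partners. S100A10 holds annexin A2 at the membrane and has lost calcium binding, S100A11 binds annexin A1, S100A6 (calcyclin) binds the calcyclin-binding protein, S100A4 binds non-muscle myosin and is best known from fibroblasts and motile cells, S100A13 takes part in the release of FGF1, and S100A1 is best known from the calcium cycling of muscle. S100A14 and S100A16 are found in epithelia. S100g encodes calbindin-D9k, a calcium buffer of enterocytes whose expression depends on vitamin D and its receptor. TGFB1 is a secreted cytokine that acts through SMAD transcription factors.

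Of the 9 genes, 8 lie on mouse chromosome 3 and S100g lies on chromosome X, by the gene order of RefSeq on GRCm38.p6. S100a1, S100a13, S100a14 and S100a16 follow each other there without another gene between them, and S100a11 and S100a10 are separated by 1 predicted gene. S100a1 and S100a13 overlap each other, and S100g overlaps Ctps2. Strand use in the counting is not stated, so reads from the overlapping stretches of these genes cannot be assigned with certainty in the bulk values. RefSeq promoter windows (GRCm38.p6, 250 bases before to 50 bases after a start) were found for 7 of the 9 genes.

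4 windows are printed because they belong to the genes with the largest changes or the changes that differed most between conditions, or because 2 genes share them. Capitals mark matches, on either strand, to the SMAD half-site letters CAGAC or to the AP-1 letters TGANTCA. In the S100a13 window, which holds no such match, capitals mark the 204 bases that are also in the S100a1 window, whose gene runs on the other strand.
S100a6 (chr3:90612644-90612943, plus strand): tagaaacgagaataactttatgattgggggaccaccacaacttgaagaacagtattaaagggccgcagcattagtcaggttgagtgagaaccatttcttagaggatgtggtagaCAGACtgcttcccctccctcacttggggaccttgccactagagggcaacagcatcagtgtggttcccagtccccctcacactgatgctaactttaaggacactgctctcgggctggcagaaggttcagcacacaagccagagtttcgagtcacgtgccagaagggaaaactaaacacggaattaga
S100a11 (chr3:93520246-93520545, plus strand): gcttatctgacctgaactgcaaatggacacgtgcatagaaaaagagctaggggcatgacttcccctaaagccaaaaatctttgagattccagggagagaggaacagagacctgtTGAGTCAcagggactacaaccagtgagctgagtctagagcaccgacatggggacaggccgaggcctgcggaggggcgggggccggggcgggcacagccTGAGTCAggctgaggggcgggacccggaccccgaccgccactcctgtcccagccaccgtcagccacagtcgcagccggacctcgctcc
S100a13 (chr3:90514185-90514484, plus strand): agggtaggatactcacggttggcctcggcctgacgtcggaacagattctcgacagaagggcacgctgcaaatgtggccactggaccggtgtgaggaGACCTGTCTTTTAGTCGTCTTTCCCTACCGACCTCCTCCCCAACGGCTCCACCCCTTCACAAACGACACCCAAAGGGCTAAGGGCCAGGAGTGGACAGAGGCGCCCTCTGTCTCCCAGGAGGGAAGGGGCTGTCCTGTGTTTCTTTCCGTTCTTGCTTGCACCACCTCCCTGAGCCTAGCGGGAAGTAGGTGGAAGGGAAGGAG
S100g (chrX:162964550-162964849, minus strand): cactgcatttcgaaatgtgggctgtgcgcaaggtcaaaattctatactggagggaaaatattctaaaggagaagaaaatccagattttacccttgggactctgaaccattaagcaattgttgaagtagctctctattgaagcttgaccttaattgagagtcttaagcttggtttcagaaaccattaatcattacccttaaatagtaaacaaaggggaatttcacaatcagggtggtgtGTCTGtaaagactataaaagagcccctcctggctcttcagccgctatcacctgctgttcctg

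The S100a11 window held 2 matches to TGANTCA, which 7.81% of all 32851 windows of 300 bases hold at least once, and no match to CAGAC. The windows of S100a6 and S100g each held 1 match to CAGAC, which 49.6% of all windows hold, and none to TGANTCA. Among the windows not printed, a S100a16 window held 1 match to TGANTCA and 2 to CAGAC, and the S100a4 window held 2 to CAGAC. None of the windows found, which cover 7 of the 9 genes, held GGAATG, the letters of the TEAD site. Of all windows, 14.7% hold GGAATG. A match is a description of these letters, and no binding was measured here.

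The bulk libraries summed to 447728 to 621996 FPKM (fragments per kilobase of transcript, scaled to library size), with 11040 to 11361 genes above 1 FPKM, and their read depth is unknown. The deposited table of each condition was made on its own, so tests stay within a table or use terms in which a factor common to a table cancels. Epithelial identity was present in every group (enterocyte markers summed to 1471 to 21813 FPKM), while the immune list summed to 2.65 to 90.7 FPKM and the mesenchymal list to 2.83 to 10.2 FPKM. The single-cell libraries kept 699 to 4283 cells with medians of 6709 to 14399 UMIs, and all 12 proliferation markers were detected in each Ki67-RFP library. Of the 21 pairs of single-cell libraries, 2 shared 1 cell barcode each and the others none.

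The first question was whether the S100 genes change with TGFB1 in organoids that were not irradiated. All 9 were called higher (limma, Benjamini-Hochberg adjusted p under 0.05), against 33.3% of the 11330 genes tested, and 0 were called lower, against 34.9%. A call with at least a 2-fold rise was made for 8 of the 9, against 5.52% of genes. The median log2 change of the 9 genes was 1.52, the value of S100a4 itself, beside −0.02 over all genes tested. The 9 changes ran from 0.97 to 2.90. S100a4 passed the filter of a mean of at least 1 FPKM only through the TGFB1 group in all 3 comparisons with vehicle, so its calls had to point upward and add nothing to the counts given here and below.

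In irradiated organoids at D7 the same count was found. All 9 genes were called higher, against 35.8% of 11258 genes, with 0 called lower against 39.7%, and 8 rose at least 2-fold, against 7.79%. The median change was 1.48 log2 units, beside −0.03 over all genes. TGFB1 was given for 24 h from day 6, so D7 libraries were taken at its end and D11 libraries after it had ended. At D11 the picture was mixed: 6 were called higher (S100a4, S100a6, S100a10, S100a11, S100a14 and S100a16) against 32.3% of 11479 genes, S100g was called lower against 31.6%, and S100a1 and S100a13 were not called. Only 3, S100a4 among them, rose at least 2-fold at D11, against 5.67% of genes. A bulk level cannot tell fewer cells of a type from less RNA per cell.

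**Figure D1:**
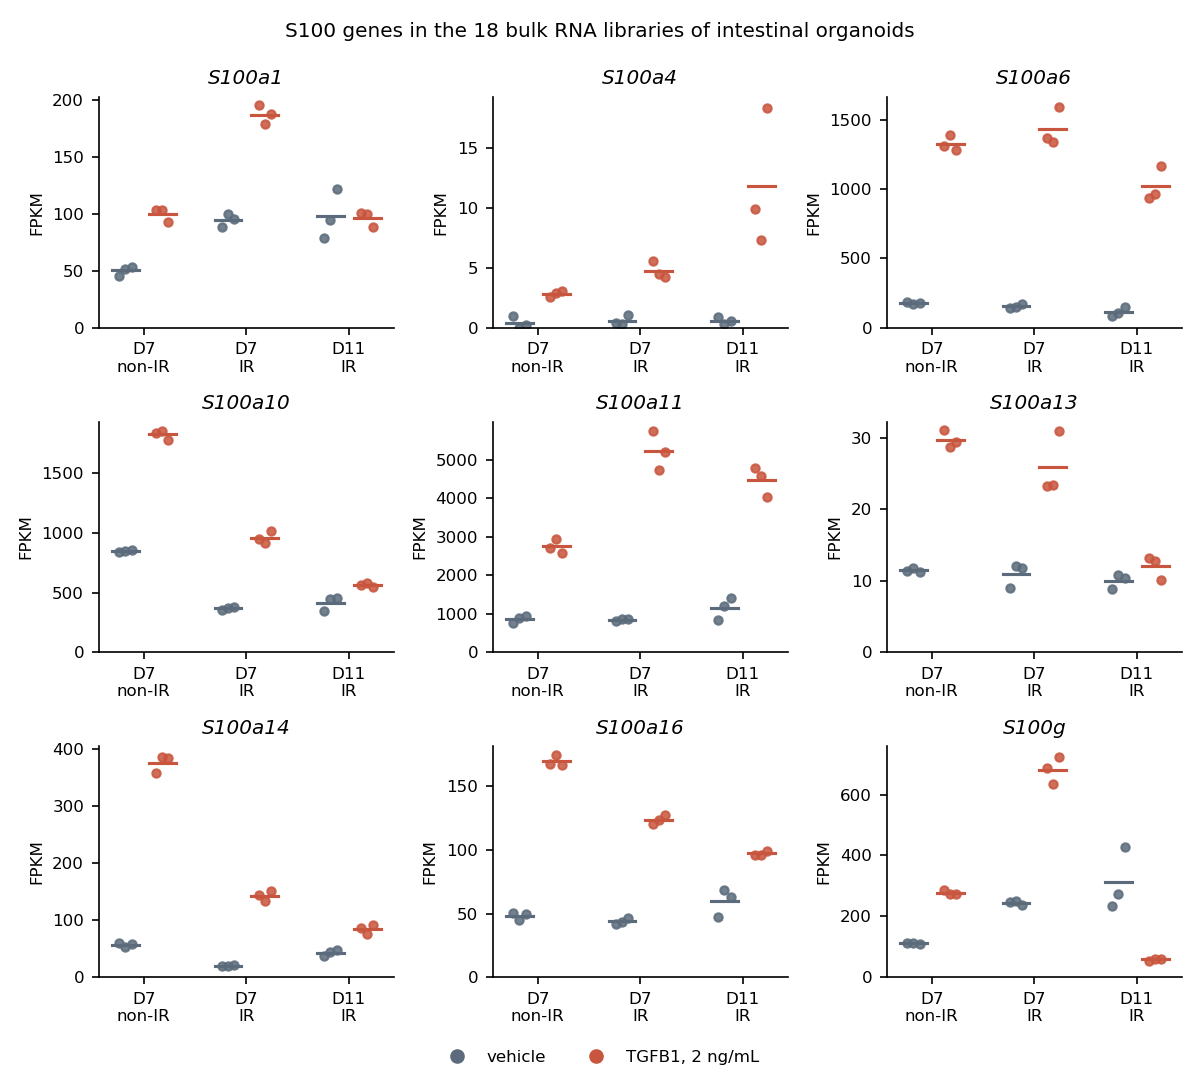
Each panel plots the FPKM of 1 gene (linear axis from 0) in the 18 bulk libraries, with points for libraries and a line for the mean of 3. TGFB1 libraries lie above vehicle libraries in every panel at D7, and at D11 only S100g has all of them below.

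S100a6 rose the most of the 9 genes at D7 on the log2(FPKM + 1) scale. In D7 non-IR organoids it was at 186, 168 and 175 FPKM with vehicle and at 1311, 1390.1 and 1285 FPKM with TGFB1. In D7 IR organoids it was at 143, 149.7 and 171 FPKM with vehicle and at 1369, 1340.35 and 1592 FPKM with TGFB1. At D11 it was at 87.2, 105 and 149.5 FPKM with vehicle and at 939, 968 and 1165 FPKM with TGFB1. The groups were far apart in all 3 tables, with every TGFB1 library several-fold above every vehicle library. The means went from 177 ± 9.12 to 1328 ± 54.9 FPKM (SD, n = 3), from 155 ± 15.0 to 1434 ± 138 FPKM, and from 114 ± 32.1 to 1024 ± 123 FPKM. The log2 changes were 2.90 (SE 0.04), 3.21 (SE 0.08) and 3.19 (SE 0.18), with limma adjusted p of 4.96e-12, 2.68e-09 and 6.99e-07.

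S100a11, the annexin A1 partner, had the highest level of the 9 genes in every TGFB1 group. With vehicle it was at 773, 895 and 935 FPKM in D7 non-IR and at 806, 873 and 875 FPKM in D7 IR organoids. With TGFB1 it was at 2721, 2957 and 2594 FPKM and at 5749.5, 4744 and 5204 FPKM in these tables. Vehicle levels overlapped between the 2 tables, and the TGFB1 levels did not. The change was 1.67 log2 units (SE 0.08, limma adjusted p 5.01e-07) without irradiation and 2.62 (SE 0.07, limma adjusted p 6.98e-10) with it. At D11 it was at 1158 ± 285 FPKM with vehicle and 4477 ± 385 FPKM with TGFB1 (SD, n = 3). That was a log2 change of 1.98 (limma adjusted p 1.66e-05), with vehicle libraries spread from 852 to 1415 FPKM.

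S100a10, the annexin A2 partner, varied little between replicates at D7. Its vehicle libraries were at 845, 851 and 857 FPKM in D7 non-IR, and its TGFB1 libraries at 1839.9, 1857 and 1781 FPKM. In D7 IR they were at 358, 372 and 378 FPKM and at 951, 919 and 1016 FPKM. The irradiated TGFB1 libraries thus lay near the level of the non-irradiated vehicle libraries. The changes were 1.101 log2 units (SE 0.03, limma adjusted p 1.00e-10) and 1.38 (SE 0.04, limma adjusted p 1.09e-09). At D11 the levels were 416 ± 62.2 and 564 ± 16.2 FPKM (SD, n = 3). The log2 change there was 0.45 (SE 0.13, limma adjusted p 0.0111).

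S100a14 and S100a16, the epithelial pair, are neighbours on chromosome 3. S100a14 was at 59.8, 53.0 and 59.0 FPKM with vehicle and at 359, 387 and 385 FPKM with TGFB1 in D7 non-IR organoids. In D7 IR organoids the values were 19.99, 19.66 and 21.02 FPKM with vehicle and 144, 134 and 151 FPKM with TGFB1. Both groups of the irradiated table lay far below their counterparts, while the ratio between treatment and vehicle was nearly the same (6.58 and 7.06). The log2 changes were 2.699 (SE 0.05, limma adjusted p 1.95e-11) and 2.76 (SE 0.05, limma adjusted p 2.95e-11). At D11 S100a14 was at 42.9 ± 5.66 FPKM with vehicle and 85.2 ± 7.79 FPKM with TGFB1 (SD, n = 3), a log2 change of 0.98 (limma adjusted p 3.54e-05). S100a16 rose from 48.3 ± 2.78 to 169.6 ± 4.33 FPKM in D7 non-IR, from 44.1 ± 2.35 to 124 ± 3.35 FPKM in D7 IR and from 59.7 ± 10.8 to 97.2 ± 1.84 FPKM at D11. Its log2 changes fell from table to table, at 1.79, 1.47 and 0.71, the largest limma adjusted p being 0.000614.

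S100a1 and S100a13, the overlapping pair, moved at D7 and not at D11. S100a1 was at 45.6, 51.5 and 53.6 FPKM with vehicle and at 102.9, 102.9 and 92.5 FPKM with TGFB1 in D7 non-IR, and at 88.0, 99.8 and 95.5 FPKM and at 195, 179 and 188 FPKM in D7 IR. Both D7 changes were just under 2-fold, at 0.97 log2 units (SE 0.06, limma adjusted p 3.24e-07) and 0.98 (SE 0.05, limma adjusted p 3.51e-08). At D11 its TGFB1 libraries (101, 99.8 and 88.7 FPKM) lay inside the range of its vehicle libraries (78.9, 94.6 and 122 FPKM), and the change was −0.01 log2 units (SE 0.14, limma adjusted p 0.965). S100a13 went from 11.5 ± 0.275 to 29.7 ± 1.26 FPKM in D7 non-IR and from 11.0 ± 1.75 to 25.9 ± 4.38 FPKM in D7 IR (SD, n = 3), with log2 changes of 1.30 and 1.17 (limma adjusted p 1.12e-09 and 0.000219). At D11 its libraries overlapped, at 8.83, 10.8 and 10.5 FPKM with vehicle and 13.2, 12.7 and 10.1 FPKM with TGFB1 (log2 change 0.24, SE 0.11, limma adjusted p 0.0954). Without TGFB1 replicate 3 of D11 this change was called (0.35, limma adjusted p 0.0194).

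S100a4 had the lowest level. Its vehicle libraries lay between 0 and 1.05 FPKM in all 3 tables. With TGFB1 it was at 2.55, 2.91 and 3.03 FPKM in D7 non-IR, at 5.53, 4.51 and 4.20 FPKM in D7 IR and at 9.86, 7.30 and 18.3 FPKM at D11. Each TGFB1 library was above each vehicle library of its table. The log2 changes of FPKM + 1 were 1.52 (SE 0.23), 1.90 (SE 0.17) and 2.97 (SE 0.32), with limma adjusted p from 6.14e-06 to 0.00054. At such levels the added 1 sets much of the size: with 0.1 added instead, they were 3.20, 3.04 and 4.19.

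Markers of fibroblasts and leukocytes were examined beside S100a4, since it is abundant in both kinds of cell. The sum of the mesenchymal list ran from 4.53 to 5.02 FPKM with vehicle and from 4.89 to 5.46 with TGFB1 in D7 non-IR, from 4.27 to 5.35 and from 7.37 to 10.2 in D7 IR, and from 4.92 to 6.88 and from 2.83 to 4.29 at D11. The immune list ran from 25.0 to 28.6 and from 80.6 to 90.7 FPKM, from 4.80 to 5.15 and from 13.3 to 15.9 FPKM, and from 2.65 to 4.73 and from 15.8 to 18.8 FPKM in the same order. The immune sum, over 10 of 11 listed genes, thus moved with TGFB1 in every table, and its part in S100a4 was not tested. In this list Cd74 reached 89.4 FPKM, and Lyz2 reached 9.27 FPKM. The mesenchymal sum, over 12 of 12 listed genes, overlapped between vehicle and TGFB1 in D7 non-IR. It rose with S100a4 in D7 IR and moved the other way at D11, and its part in S100a4 was not tested. Over the 18 libraries Vim had a median of 4.68 FPKM and Acta2 reached 4.14 FPKM. Ptprc, Dcn and Col3a1, other genes of these lists, had medians of 0.0331 FPKM or less, and Cd52 had 0.16 FPKM.

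S100g, the calcium buffer of enterocytes, was the gene whose direction changed. It was at 113, 111 and 109.5 FPKM with vehicle and at 288, 272 and 273 FPKM with TGFB1 in D7 non-IR. In D7 IR it was at 247, 250.1 and 236 FPKM with vehicle and at 687, 635 and 725 FPKM with TGFB1. At D11 it was at 233, 274 and 428 FPKM with vehicle and at 54.2, 60.0 and 61.3 FPKM with TGFB1. TGFB1 libraries were all above vehicle at D7 and all below it at D11, after the TGFB1 treatment had ended. The log2 changes were 1.31 (SE 0.03, limma adjusted p 1.08e-10), 1.48 (SE 0.05, limma adjusted p 1.57e-09) and −2.35 (SE 0.20, limma adjusted p 2.30e-05).

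The enterocyte marker sum did not follow S100g in every table. It went from 2310–2446 FPKM with vehicle to 1471–1588 with TGFB1 in D7 non-IR, from 13231–14226 to 20857–21813 in D7 IR, and from 2151–4389 to 2211–2551 at D11. So S100g rose without irradiation where the enterocyte sum was lower, and rose after irradiation where it was higher. Its part in the S100g values was not tested.

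**Figure D2:**
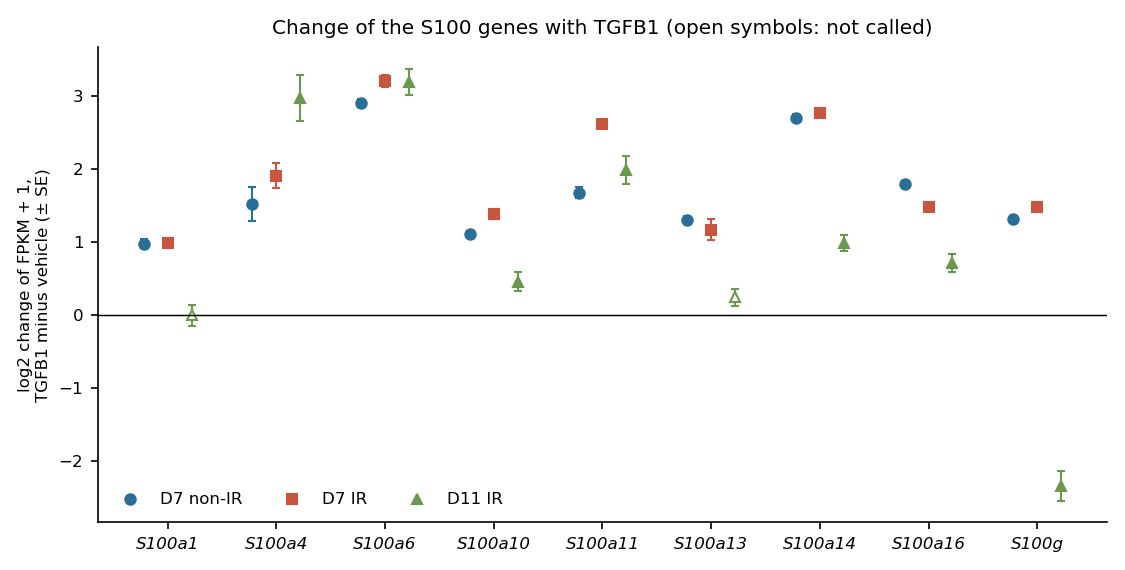
Log2 change of FPKM + 1 (TGFB1 minus vehicle, error bars are the standard error of the limma fit) of each gene in the 3 tables. Every D7 value is above 0.9, and at D11 the values run from −2.35 (S100g) to 3.19 (S100a6), with open symbols for the 2 genes not called.

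The second question was whether the TGFB1 change differed with irradiation at D7, tested as the D7 IR change minus the D7 non-IR change over 12 libraries. It was called for 5 of the 9 genes: 4 higher (25.3% of 11411 genes) and 1 lower (27.8%). In either direction, 6061 of the 11411 genes were called. S100a11 had the largest term, 0.95 log2 units (SE 0.11, limma adjusted p 1.63e-05), and it was called in all 20 alternatives, from 0.62 to 1.03. S100a16 was lower by −0.32 (SE 0.07, limma adjusted p 0.000842). S100a10 (0.28, limma adjusted p 0.00046), S100a6 (0.30, limma adjusted p 0.0254) and S100g (0.16, limma adjusted p 0.0397) had small positive terms. S100a10 lost its call with all 18 libraries in one fit (limma adjusted p 0.0615). S100a6 lost its call in 9 of 20 alternatives (0.16 to 0.30, limma adjusted p up to 0.242) and S100g in 14 (0.02 to 0.17, limma adjusted p up to 0.744). For S100a6 these included leaving out vehicle replicate 1, TGFB1 replicate 1 or TGFB1 replicate 3 without irradiation, and vehicle replicate 1, vehicle replicate 2 or TGFB1 replicate 3 with it. For S100g they included leaving out any non-irradiated library but TGFB1 replicate 1, and irradiated vehicle replicate 1 or 3 or TGFB1 replicate 1 or 3. S100a1, S100a4, S100a13 and S100a14 were not called (limma adjusted p 0.353 to 0.95), which does not show equal changes.

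The third question was whether the change in irradiated organoids differed between D11, after the TGFB1 treatment had ended, and D7, at its end. Here 8 of the 9 genes were called, 7 with a smaller or reversed change at D11 (33% of 11456 genes called lower) and S100a4 with a larger one (31.5% called higher). S100g had the largest term, −3.82 (SE 0.23, limma adjusted p 3.56e-08), followed by S100a14 at −1.78 (SE 0.13, limma adjusted p 4.65e-08). S100a1 (−0.99), S100a13 (−0.93), S100a10 (−0.93), S100a16 (−0.76) and S100a11 (−0.64) had terms with limma adjusted p from 4.47e-05 to 0.0187. The S100a4 term of 1.07 (limma adjusted p 0.0382) was lost in 7 of 19 alternatives (0.86 to 1.16, limma adjusted p up to 0.159). These included leaving out D7 vehicle replicate 1 or 3, D7 TGFB1 replicate 2 or 3, or D11 vehicle replicate 2 or 3. The S100a11 term was −0.57 (limma adjusted p 0.0509) without D7 TGFB1 replicate 1. S100a6 alone was not called (−0.02, SE 0.23, limma adjusted p 0.947). With quantile normalization the terms of S100a6 and S100a11 were positive, 0.52 and 0.54 (limma adjusted p 0.0457 and 0.0633), so the direction of S100a11 rests on the scaling as deposited.

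Levels of the vehicle groups were set side by side without a test, since the tables were made separately. Between D7 IR and D7 non-IR vehicle, 2 genes had libraries wholly above (40.7% of 11235 genes) and 2 wholly below (44.3%), and 5 overlapped. S100g was 2.199-fold and S100a1 1.88-fold higher in the irradiated group. S100a14 was 2.83-fold and S100a10 2.30-fold lower there. Between D11 and D7 vehicle after irradiation, S100a14 (2.12-fold) and S100a16 (1.36-fold) were wholly above (33.7% of 11264 genes), 0 were wholly below (33.1%) and 7 overlapped. S100a14 was thus lowest in irradiated vehicle organoids at D7 and at an intermediate level at D11. Without D11 vehicle replicate 1 the count of genes that did not overlap was 5, and without D7 IR vehicle replicate 1 it was 4.

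Other S100 and fused-type relatives were mostly silent in the bulk organoid libraries. Of 16 listed, 14 were in the tables and 4 passed the filter in each TGFB1 comparison. S100a7a (psoriasin family) was called higher in all 3, from 3.88 ± 0.72 to 10.6 ± 1.28 FPKM, from 1.61 ± 0.118 to 5.85 ± 1.14 FPKM and from 1.14 ± 1.11 to 15.4 ± 9.67 FPKM (SD, n = 3). S100a3, which overlaps S100a2 in the annotation, was called higher in all 3 as well, and its means stayed under 3.01 FPKM. Its vehicle means were 0.411, 0.208 and 0.497 FPKM, so it too passed the filter only through the TGFB1 group, which fixed the direction. S100a8 and S100a9, which neutrophils carry in large amounts, had group means of 0.35 FPKM or less.

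Known partners moved in part with the 9 genes. Of 13 listed, 9 were tested, and 7, 6 and 6 were called higher and 1, 2 and 1 lower in the 3 TGFB1 comparisons, in the order used above. Anxa2, which pairs with S100A10, rose from 828 ± 3.46 to 3287 ± 87.6 FPKM, from 493 ± 6.81 to 1977 ± 126 FPKM and from 388 ± 65.4 to 884 ± 54.0 FPKM (SD, n = 3). Anxa1, which pairs with S100A11, rose from 19.8 to 341 FPKM, from 14.5 to 209 FPKM and from 10.6 to 279 FPKM. Anxa6 (log2 changes 2.42, 2.16 and 2.40) and Ahnak (1.63, 1.90 and 1.54), a large scaffold bound by the S100A10 and annexin A2 complex, rose too. Anxa1 and Anxa2 also belong to the regenerative marker list, whose sum went from 2278–2347 to 10066–10520 FPKM, from 1584–1668 to 10326–11481 FPKM and from 1702–2146 to 7136–8091 FPKM. Regenerative markers were therefore high in the same libraries as most S100 genes, and their part in the S100 values was not tested.

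Genes of vitamin D action and calcium transport mostly fell. Of 13 listed, 7 were tested, and 5 were called lower in each TGFB1 comparison, with 1, 2 and 1 called higher. Vdr, the vitamin D receptor, fell from 84.2 ± 2.36 to 23.6 ± 0.385 FPKM in D7 non-IR, from 175.5 ± 3.49 to 78.1 ± 2.52 FPKM in D7 IR and from 242 ± 15.6 to 50.3 ± 5.44 FPKM at D11 (SD, n = 3). At D7 Vdr thus fell where S100g rose, and at D11 both fell. Cldn15, a claudin of the intestinal paracellular route, fell from 275 to 89.4 FPKM in D7 non-IR, from 316 to 201 FPKM in D7 IR and from 301 to 101 FPKM at D11. Trpv5, a calcium channel, and Calb1, the larger calbindin, were listed at 0 in all 18 libraries. Trpv6, the other calcium channel of this kind in the list, reached 0.0794 FPKM. Of 6 calmodulin genes, 4 were tested, and Calml4 alone changed at least 2-fold, from 314 ± 40.6 to 127 ± 9.20 FPKM at D11 (log2 change −1.30, limma adjusted p 8.18e-06).

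Genes with the profile most like each of the 9 were taken by Pearson r of log2(FPKM + 1) over the 18 libraries among 7037 genes. These libraries share 6 groups, so r reflects group differences, and it carries no p. S100a6 was most like Capg (r = 0.995), Lgals3 (0.994) and Smurf1 (0.993). S100a10 was most like Dync1i2 (0.996), Ctnna1 (0.99) and Chmp2b (0.99), and S100a11 was most like Ncmap (0.988), Tmem43 (0.988) and Cym (0.981). S100a14 was most like Krt23 (0.99), Hbegf (0.987) and F3 (0.984), and S100a16 was most like Lama3 (0.976) and Dyrk3 (0.972). S100g had the weakest best match, Rfk (0.96). Among the 9 genes themselves the highest r was between S100a14 and S100a16 (0.938), and S100a4 and S100g had r = −0.20.

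The single-cell time course asked how early these genes move. With 1 library per time there is no replicate and no test. Values are CPM (UMIs of a gene scaled to the summed UMIs of kept cells), with exact Poisson 95% intervals that cover counting error only, and levels are compared within a gene. Genes were counted with at least 50 UMIs summed over the compared libraries. At 6 h, 1 of the 9 genes was at least 2-fold above 0 h (2.66% of 13335 genes), at 15 h 4 (4.41% of 13243) and at 24 h 4 (9.6% of 13619). S100a4, among the 4 at 15 h and at 24 h, passed this filter only through the later library. That fixed its direction, so S100a4 adds nothing to those counts. None of the 9 was 2-fold lower at 24 h (3.23% of genes). The median log2 ratio of the 9 genes was 0.29, 0.62 and 0.86 at 6, 15 and 24 h, beside 0.03, 0.03 and 0.06 over all genes.

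S100a6 climbed at each time, at 180 (175 to 185), 322 (315 to 328), 959 (948 to 971) and 1773 (1758 to 1788) CPM at 0, 6, 15 and 24 h. Its ratio to 0 h was 1.79 at 6 h and 9.86 at 24 h. S100a14 was the 1 gene past 2-fold at 6 h, at 15.3, 34.5, 52.8 and 78.8 CPM in the order of the times. S100a11 was nearly level at 6 h and rose later, at 117, 125, 331 and 612 CPM. The 24 h ratios of S100a6 (9.86), S100a11 (5.23) and S100a14 (5.14) stand beside bulk ratios of 9.27, 6.15 and 7.06 in D7 IR organoids. Those organoids had a higher TGFB1 dose and an earlier day. For S100a1, S100a10, S100a13, S100a16 and S100g the 24 h ratios were 1.31, 1.61, 1.81, 1.68 and 1.63. Each was smaller than the bulk ratio in D7 IR, which was 1.98, 2.60, 2.36, 2.81 and 2.79 in that order.

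S100a4 also passed 2-fold, with a 24 h ratio of 6.31 (3.72 to 11.4) that rests on few molecules. It was found as 16 UMIs at 0 h, about 35 at 6 h, 42 at 15 h and 113 at 24 h, or 0.585 (0.334 to 0.95) to 3.69 (3.04 to 4.44) CPM. The other 5 genes moved less. S100a10 was at 402, 532, 613 and 647 CPM, so part of its rise was present by 6 h. S100g was at 955, 925, 1144 and 1557 CPM, with no rise at 6 h. The enterocyte marker sum was 22816, 24372, 23728 and 18946 CPM, so it was lowest where S100g was highest. S100a13 (26.8 to 48.5 CPM), S100a16 (21.7 to 36.5 CPM) and S100a1 (37.8 to 49.6 CPM) stayed within 2-fold of 0 h at 24 h. The regenerative marker sum climbed beside them (923, 1254, 2374 and 3686 CPM). The immune sum was 3.62 CPM at 0 h and 9.39 at 24 h, and the mesenchymal sum 1.97 and 6.48 CPM. Within the immune list Cd74 went from 1.86 to 8.26 CPM. Ptprc was nearly level (0.242 and 0.239 CPM), and Lyz2 (0.896 and 0.510 CPM) and Fcer1g (0.475 and 0.229 CPM) were lower at 24 h. The part of regenerative, immune or mesenchymal cells in the S100 values was not tested.

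**Figure D3:**
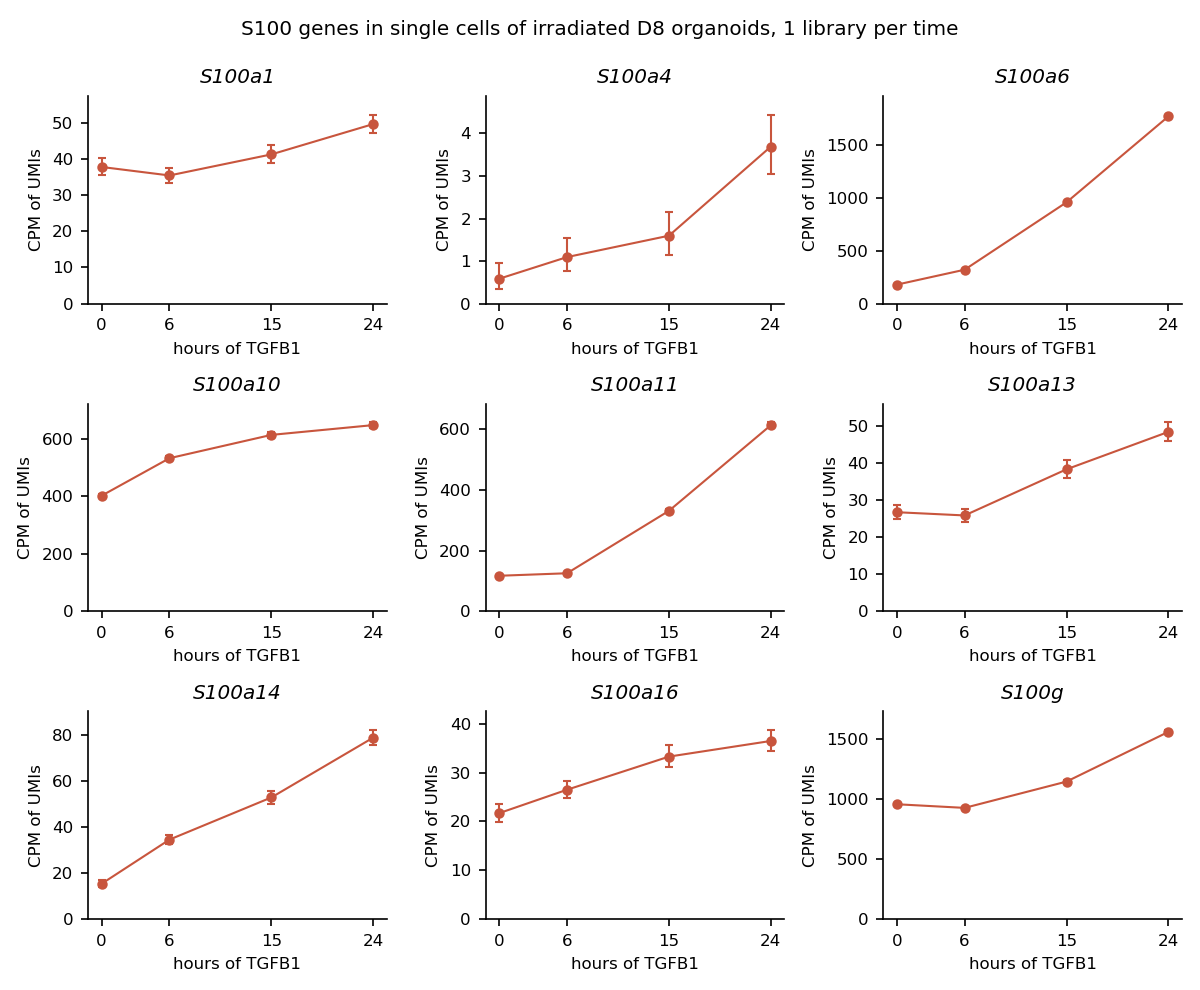
CPM of each gene (linear axis from 0) against hours of TGFB1 in 4 libraries of irradiated D8 organoids, with exact Poisson 95% intervals. S100a6, S100a11 and S100a14 climb to the 24 h library, while S100g is at 925 CPM at 6 h and 1557 at 24 h.

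The share of cells with a UMI was taken after thinning each cell to 2000 UMIs. For S100a6 it was 15.1% (13.8 to 16.5, Clopper-Pearson 95%) at 0 h, 22.6% (21.4 to 23.9) at 6 h, 43.4% (41.6 to 45.2) at 15 h and 53.6% (51.5 to 55.7) at 24 h. For S100a11 it was 13.9, 15.1, 28.4 and 40.9%, and for S100g 59.3, 61.9, 70.8 and 75.6%. A larger share of thinned cells carried each of these transcripts at 24 h than at 0 h. Without thinning the shares were 33.8, 43.0, 66.6 and 84.1% for S100a6, 38.0, 37.8, 54.4 and 71.9% for S100a11, and 87.7, 86.4, 92.7 and 96.4% for S100g. Thinning left out 1 cell at 0 h and 5 at 6 h. No cell type in these libraries is known to lack the 9 genes, so the share due to free RNA was not measured.

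Cells with a UMI of Clu, a marker of regenerating epithelium, were set apart in each thinned library. They numbered 63 of 2931 at 0 h and 954 of 2218 at 24 h. S100a6 was found in 68.4% (65.4 to 71.4) of Clu-positive and 42.3% (39.6 to 45.1) of other cells at 24 h, with means of 4.42 and 1.0997 UMIs per thinned cell. S100g ran the opposite way, in 65.8% (62.7 to 68.8) of Clu-positive and 83.0% (80.8 to 85.0) of other cells. S100a6 also rose in Clu-negative cells between libraries, from 14.7% at 0 h to 42.3% at 24 h. In sparse counts a cell without a Clu UMI may still express it.

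Cells were clustered with S100 genes left out, so that these genes did not shape the clusters. Clusters were split unevenly between libraries, so clusters are compared by number, and the name of a type is used only where leading genes carried it. Cluster 1 (enterocyte-like, led by Cyp2b10, Cyp3a11, Reg1 and Fabp1) had the lowest S100a6, 56.8 CPM, beside one of the highest S100g levels, 2100 CPM. Cluster 10 (led by Ada, Tm4sf4, Sprr1a and Anxa10) had 3222 CPM of S100a6, and cluster 15 (led by Anxa1, Pyy, Anxa8 and Ly6d) had 9292 CPM of S100a6 and 3409 CPM of S100a11. Cluster 15 held 106 cells with a median of 17217 UMIs, and doublets were not removed. S100g was highest in cluster 2 (led by Ctrb1, Reg3g, Lct and Rbp2), at 2120 CPM, and lowest in cluster 9 (led by Clca3b, Ccna2 and Ube2c), at 269.7 CPM, among the 16 clusters of at least 50 cells.

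Within clusters S100a6 rose with time as well. In cluster 1 it was at 36.4, 52.7, 69.6 and 85.5 CPM at 0, 6, 15 and 24 h, and in cluster 10 at 1485, 2368, 3612 and 4913 CPM. It was higher at 15 h than at 0 h in 5 of 5 clusters with at least 50 cells in both libraries, with ratios from 1.91 to 3.46. Cluster 4, one of these 5, was led by Mcm3, Mcm4 and Uhrf1, genes of DNA replication. S100a6 was higher at 24 h than at 15 h in 7 of 8 clusters, the exception being cluster 11 (388 and 326 CPM). The leading genes of cluster 11 included the noncoding RNAs 7SK, Snora30 and Rpph1. The pooled ratio of 15 h to 0 h was 5.33, which is larger than the ratio in any of those 5 clusters. S100a11 was likewise higher at 15 h than at 0 h in 5 of 5 clusters (1.77 to 2.17), and S100g in 3 of 5 (0.819 to 1.82). S100g was higher at 24 h than at 15 h in 8 of 8 clusters (1.09 to 2.34).

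**Figure D4:**
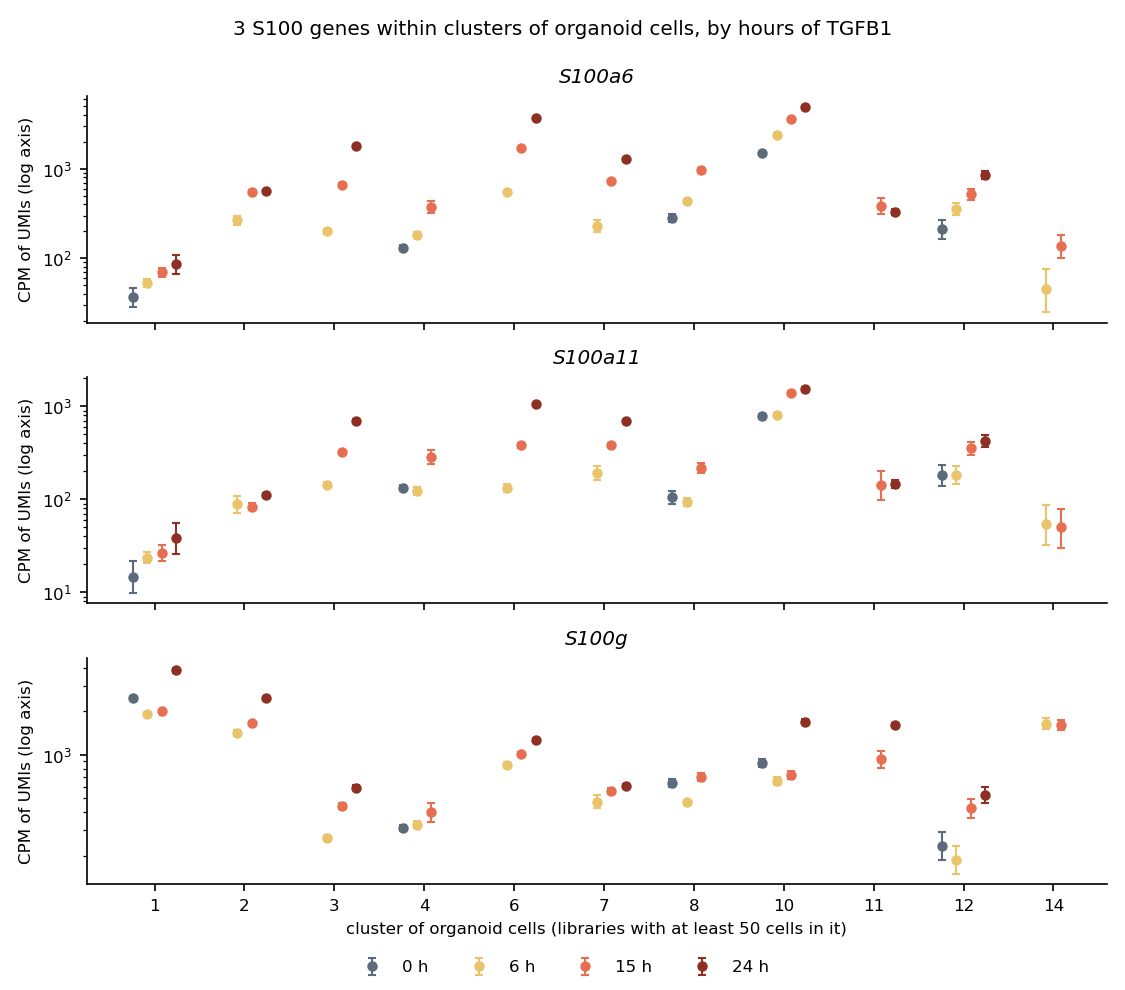
CPM (log axis) of S100a6, S100a11 and S100g by cluster of organoid cells and hours of TGFB1, for clusters with at least 50 cells in at least 2 libraries, with exact Poisson 95% intervals. S100a6 in cluster 10 goes from 1485 CPM at 0 h to 4913 at 24 h, and S100g is highest in clusters 1 and 2.

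The last comparison set cycling crypt cells of irradiated mice beside those of a littermate. With 1 library against 2 there is no test. Of the 9 genes, 4 were at least 2-fold higher in both irradiated libraries (11.9% of 14155 genes), S100a4, S100a6, S100a11 and S100a14, and 0 were 2-fold lower in both (5.52%). S100a6 was at 10.9 CPM (9.70 to 12.3) in the non-irradiated library and at 1338 (1319 to 1358) and 1946 (1921 to 1970.3) in the irradiated ones. That is 122-fold and 178-fold more, the largest ratio of the 9 genes. S100a14 was at 2.13 against 51.1 and 52.9 CPM, and S100a11 at 62.9 against 611 and 816 CPM. S100a4 rested on 10.5, 43 and 38.5 UMIs, or 0.407 against 3.13 and 3.12 CPM. It reached the 50 summed UMIs needed to be counted only through the irradiated libraries. That fixed its direction, so S100a4 adds nothing to the count of 4.

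The remaining genes were closer between the libraries. S100a10 was at 619.8 against 866 and 1036 CPM and S100a16 at 50.7 against 70.6 and 82.1 CPM. S100a13 was at 12.5 against 23.7 and 31.3 CPM, which is past 2-fold in replicate 2 only. S100g lay on both sides of the littermate, at 57.4 against 28.3 and 104 CPM (ratios 0.493 and 1.81), and so did S100a1, at 35.2 against 25.0 and 44.7 CPM. The median log2 ratio over all genes was 0.14, so these ratios stand on a small shift of the whole profile. The sum of the 16 other S100 and fused-type relatives was 7.30 CPM without irradiation and 44.9 and 49.3 CPM after it.

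**Figure D5:**
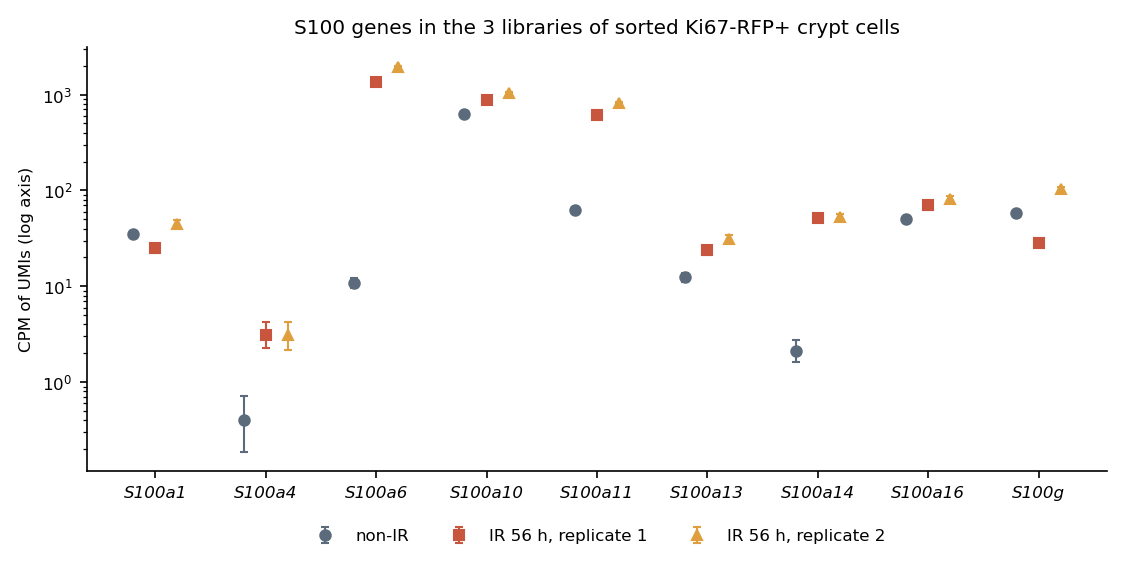
CPM (log axis) of each gene in the 3 libraries of sorted Ki67-RFP+ crypt cells, with exact Poisson 95% intervals. S100a6 is at 10.9 CPM without irradiation and at 1338 and 1946 after it, whereas the irradiated libraries lie on both sides of the other for S100a1 and S100g.

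Among thinned cells, S100a6 was found in 2.22% (1.60 to 3.00) of 1846 cells without irradiation and in 68.7% (65.2 to 72.1) of 719 and 73.4% (69.9 to 76.6) of 699 cells after it. Without thinning these shares were 11.21, 95.13 and 96.996%. A Clu UMI was found in 0 of the 1846 thinned cells, which allows up to 0.163% of such cells with a UMI and sets no limit on cells that express Clu. It was found in 53 and 52 cells of the irradiated libraries. S100a6 was found in 67.3 and 72.8% of the irradiated cells without a Clu UMI. High shares were thus found also in cells without a Clu UMI.

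Crypt cell clusters separated almost wholly between non-irradiated and irradiated cells, while the irradiated libraries shared clusters. S100a6 ran from 2.61 to 31.0 CPM in the 5 clusters with at least 50 non-irradiated cells, and from 662 to 3259 CPM in the irradiated libraries of the 4 clusters they filled. The corresponding ranges were 49.95 to 94.8 and 380.07 to 1309.7 CPM for S100a11, and 0.522 to 6.74 and 24.9 to 103 CPM for S100a14. Since clusters follow that split, these ranges restate the difference between the non-irradiated and irradiated libraries at the level of clusters. S100a6 was highest in cluster 3 (regenerative-like, led by Sprr2a1, Il1rn, Clu, Ly6a and Anxa3). The regenerative marker sum was 461 CPM without and 2512 and 2932 CPM with irradiation, the immune sum 13.1 against 40.4 and 40.0 CPM, and the mesenchymal sum 11.1 against 16.1 and 18.5 CPM. The part of these cells in the S100 values was not tested. Irradiation and the strainer used cannot be told apart here.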

How the data were processed

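Bulk values are FPKM in 3 tables deposited by the authors, 1 per condition, and the submitters' processing notes list TopHat2 2.1.0, Cuffnorm 2.2.1 and Cuffdiff 2.2.1 without tying them to a file. Single-cell values are estimated counts of UMIs deposited by the authors, partly fractional, with STARsolo and STAR 2.7.10a in the submitters' processing notes. These list the builds mm9 and GRCm39 without their roles. Accessibility data were not used here.

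log2(FPKM + 1) was tested per table with limma 3.58.1 (R 4.3.3; trend, robust, two-sided) for genes averaging 1 FPKM or more over the fitted libraries, with Benjamini-Hochberg adjustment over all genes tested and a threshold of 0.05. Interactions used 12 libraries. Cells entered with 500 UMIs and 250 genes or more and a mitochondrial share of up to 20%. Fractional counts were summed as deposited for CPM, and no count model was run. Counts of genes past 2-fold took genes with at least 50 UMIs summed over the compared libraries. Doublets were not removed. Clusters used 2000 variable genes without S100 genes, 30 principal components, 15 neighbours and Leiden resolution 0.6 (leidenalg 0.10.2). Intervals and the limit that a count of 0 allows (3 counts) cover counting error only. All 9 genes are named. Related genes are named when called with at least a 2-fold change, up to 6 per list, and up to 3 most alike genes are listed for each gene averaging 10 FPKM or more (1 such gene is not reported here). The genes, lists and rules were chosen with earlier results of these data known. Alternatives were another pseudocount (0.1), filter, normalization, fit, replicate block, and leaving out each library. The limma step was tested on simulated data.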

Additional observations from a re-analysis of the deposited data

Results flagged for a closer look

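The TGFB1 change of each of the 9 S100 genes differed in at least 1 contrast between conditions by a limma test of the difference itself, 13 terms in all, with 4 genes called in both contrasts. Over all genes, 6061 of 11411 were called for irradiation and 7387 of 11456 for the day, so such calls were common. Between irradiated and non-irradiated organoids at D7, the change was larger by 0.95 log2 units for S100a11, 0.30 for S100a6, 0.28 for S100a10 and 0.16 for S100g, and the term of S100a16 was −0.32. S100g lost its call in 14 of 20 alternatives, S100a6 in 9 and S100a10 in 1. Between D11 and D7 after irradiation, the term of S100g was −3.82, where a rise at D7 stood against a fall at D11. The terms of S100a14 (−1.78), S100a1 (−0.99), S100a13 (−0.93), S100a10 (−0.93), S100a16 (−0.76) and S100a11 (−0.64) were negative as well, and that of S100a4 was 1.07, a call lost in 7 of 19 alternatives. The S100a11 term lost its call in 1 alternative and changed sign in another.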

How the results depend on the processing

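All 9 calls at each D7 comparison were made in every alternative that could be fitted. The count of genes whose change differed with irradiation was 5 as reported, 3 with no filter on low values, 3 with quantile normalization, 2 with all 18 libraries in one fit, and 3 to 5 when single libraries were left out. The count whose vehicle levels did not overlap between D11 and D7 was 2, and it was 5 with quantile normalization and 2 to 5 when single libraries were left out. Signs turned only in uncalled terms or under quantile normalization. For S100a1 at D11 the change was 0.054 with quantile normalization and −0.15 to 0.16 without single libraries. For irradiation, quantile normalization gave −0.044 for S100a1 and −0.046 for S100a14, a pseudocount of 0.1 gave −0.16 for S100a4, and S100a1 ran from −0.043 to 0.075 without single libraries. For the day, quantile normalization gave 0.52 for S100a6 and 0.54 for S100a11, and S100a6 ran from −0.19 to 0.19 without single libraries. The cause was not tested. With a replicate block the called counts were 9, 9, 7, 4 and 8 against 9, 9, 7, 5 and 8. Same-numbered libraries had correlations of −0.17 to 0.25, and not every library correlated best with its own number. The highest correlation was between replicates numbered 2 in D7 non-IR (0.19) and D7 IR (0.25). At D11 it was between TGFB1 replicate 1 and vehicle replicate 2 (0.27). With 3 libraries per group, these values cannot decide whether the numbers pair the libraries. Bulk read depth is unknown, and S100a4 rests on few UMIs.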
